A study of Drosophila melanogaster with 4 samples.

Results

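The genes described here are the pair-rule genes hairy (hry), odd skipped (odd), even skipped (eve), fushi tarazu (ftz), paired (prd), runt (run), odd paired (opa), sloppy paired 1 (slp1) and sloppy paired 2 (slp2), together with engrailed (en). They were chosen by symbol and are 10 of the 13945 protein-coding genes annotated on the 6 chromosome arms used. Every deposited peak whose summit lay inside the gene body or within 5 kb of it was collected for each gene. The study mapped binding of Chinmo, a BTB zinc finger transcription factor, by chromatin immunoprecipitation and sequencing (ChIP-seq) in 4 biological replicates of 1 group, with no second condition. Each replicate was chromatin of whole embryos of strain chinmo-GFP, aged 6 to 24 h, carrying Chinmo fused to eGFP from an insertion that targets chinmo, and fragmented by sonication. The description names an antibody against GFP and the antibody field names chinmo, and the first was followed. Control libraries named in the labels were not analysed here. Whole embryos mix all cell types and a range of stages, so a peak can come from a small share of the cells, and a weak peak may reflect few cells or weak binding in many, which cannot be told apart. The peak lists hold no expression values, so the labelled stage and tissue could not be checked against markers, and read depth was unknown.

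Segmentation of the fly embryo runs through a cascade in which maternal gradients set the gap genes, gap proteins position the stripes of the pair-rule genes, and pair-rule proteins set the stripes of segment polarity genes such as en and wg. The pair-rule genes encode transcription factors, and their stripes form in the blastoderm, before the embryos sampled here were collected. Most of them are used again later, in the nervous system and other tissues, while en persists in stripes and marks the posterior cells of each segment.

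A few terms recur. A thresholded peak is one that passed the irreproducible discovery rate (IDR) step of the authors, a measure of whether a peak repeats between 2 sets of calls, and a ranked peak is any entry of the longer list made before that threshold. Thresholded lists held 2222 to 4415 peaks per replicate and ranked lists 27009 to 39707. Each peak carries the authors' own signal value, which was used only to rank peaks within 1 list; the rank percentile is the share of that list with a signal no higher, so that the strongest peak has 100. A shared region is a place where thresholded summits of at least 3 of the 4 replicates lay together, and there were 2150. A recurrent site is the same thing in the ranked lists, and there were 18250. Distances are from the nearer annotated transcription start site (TSS) of the gene, negative when upstream.

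Of the 10 genes, hry, odd and en had a shared region within 5 kb, and each of those regions lay at a promoter and was found in 4 of 4 replicates. The share of all protein-coding genes with a shared region within 5 kb was 28.5%, and 3 of 10 is near it. None of the 10 genes has another protein-coding gene in its window, which holds for 629 genes in all, and 8.74% of those isolated genes had a shared region within 5 kb. Counting only shared regions within 1 kb of a TSS gave the same 3 genes, against 12.7% of all genes and 6.68% of the isolated ones. The comparison with isolated genes was chosen after the data were seen.

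Stretches of DNA from 5 of the genes are printed here so that the letters can be set beside the peaks: the promoters of hry and odd, which hold shared regions, the opa and slp2 sites, which recur in the ranked lists, and the slp1 promoter, which has no recurrent site, for comparison. The en promoter is not printed. They were read from the RefSeq Release 6 genome, the assembly that dm6 names, and run 5′ to 3′ on the coding strand of the gene. The first 3 lines are the 150 bases before the TSS of hry (chr3L:8675609-8675758, plus strand), odd (chr2L:3606757-3606906, minus strand) and slp1 (chr2L:3825525-3825674, plus strand). The 4th is around the thresholded summits of opa (chr3R:4852477-4852626, plus strand, from -336 to -187), and the last is at the recurrent site near slp2 (chr2L:3835533-3835682, plus strand, from -1307 to -1158). Capitals mark matches, on either strand, to any of 8 short words: GAGAG of GAGA factor, the E box CACGTG, the hairy-type box CACGCG, the word GCCAT of the Polycomb-group protein Pho, CAGGTA of Zelda, TAATTA of homeodomain proteins, the TATA box word TATAAA, and the word CACCC of Krüppel-like zinc fingers. Matches may overlap.
hry: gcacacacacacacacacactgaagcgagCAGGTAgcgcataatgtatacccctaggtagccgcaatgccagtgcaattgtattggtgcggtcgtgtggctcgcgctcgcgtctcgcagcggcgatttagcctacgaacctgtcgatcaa
odd: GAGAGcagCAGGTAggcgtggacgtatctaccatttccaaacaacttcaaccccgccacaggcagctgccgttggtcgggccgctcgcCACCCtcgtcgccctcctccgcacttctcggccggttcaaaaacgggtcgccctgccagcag
slp1: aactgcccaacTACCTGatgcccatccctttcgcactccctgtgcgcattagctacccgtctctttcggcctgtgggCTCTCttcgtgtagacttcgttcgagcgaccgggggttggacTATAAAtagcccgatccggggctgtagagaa
opa: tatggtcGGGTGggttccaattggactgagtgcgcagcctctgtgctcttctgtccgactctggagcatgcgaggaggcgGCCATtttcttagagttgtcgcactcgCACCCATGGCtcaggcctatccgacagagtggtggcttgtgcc
slp2: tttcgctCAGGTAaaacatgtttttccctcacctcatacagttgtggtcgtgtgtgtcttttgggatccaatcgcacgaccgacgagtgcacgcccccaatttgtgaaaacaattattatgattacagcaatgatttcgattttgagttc

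The Zelda word, bound by the protein that opens many early embryonic enhancers, stands in the upstream sequences of hry, odd and slp1 and in the slp2 site. At hry and odd it lies upstream of the peak centres but still within the bounds of the shared regions. The 201 bases around the centres of the hry, odd, en and opa regions held 0 matches to it. Of the 2150 shared regions, 4.05% have one in such a window. Over all 10 genes, CAGGTA was in the 150 bases before the outermost TSS in 4 (hry, odd, prd and slp1), and 3.36% of all 13945 genes have it there. GAGAG was in 8 of the 10, against 18.1% of all genes. CACCC was in 4 of the 10 against 13.3%, while GCCAT was in 2 against 23.8% and TATAAA in 2 against 29.2%. The E box CACGTG was in 0 of the 10 against 1.61%, the hairy-type box in 0 against 2.72% and TAATTA in 0 against 10.9%. These matches describe letters and are not measured binding sites.

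hry encodes a bHLH repressor that works with the corepressor Groucho, and it is among the first pair-rule genes to form stripes. The gene (FBgn0001168) lies at chr3L:8675759-8679253 on the plus strand of dm6 and has 2 annotated TSSs, at 8675759 and 8675955. Its shared region, at chr3L:8675620-8675896, spanned the first TSS with its centre in the 5′ UTR. It had summits at -5, -4, +17 and +38 bp from the first TSS in replicates 1 to 4. The signal ranked 1150, 329, 223 and 127 in the 4 thresholded lists, which is a rank percentile of 66.6, 92.6, 90.0 and 95.9. Replicate 1 was the lowest of the 4, and the mean was 86.2 ± 13.3 (SD, n = 4). Among the 1768 genes with a shared region at a TSS, 85.6% had a best region with a mean no higher. Replicates 1 and 2 carried a further narrow peak with its summit exactly on the second TSS, at rank percentiles of 36.0 and 23.8.

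The hry window differed from the others in how many peaks it held. It had 3, 7, 1 and 3 thresholded peaks in replicates 1 to 4, so the count ranged widely and replicate 3 had the promoter peak alone. As many peaks or more were found at 5.35%, 0.509%, 29.2% and 4.81% of all genes in the same replicates, where the median gene had 0. The summits beyond the promoter lay upstream at -2846 and -2016 (replicate 2), in coding sequence at +2311 (replicate 4) and downstream of the gene near +6125 (replicates 2 and 4) and +7167 (replicates 1 and 2). None of those places was thresholded in 3 replicates.

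In the ranked lists those same places were called again in every replicate. The hry window held 9 recurrent sites, each found in 4 of 4 replicates. As many or more were at 5.04% of all genes and 2.23% of isolated genes, and the median was 2 for all genes, 0 for isolated genes and 1.5 for the 10 genes. The hry sites differed in strength. The weakest, at +7942, stood at 26.9 ± 21.9 (SD, n = 4). Its scores of 61, 32 and 46 in replicates 1, 3 and 4 were the lowest of those ranked lists. The site at +5455 stood at 67.2 ± 8.07. The downstream site at +6138 was the most even one, with ranked percentiles of 92.7, 92.4, 90.2 and 91.4 (91.7 ± 1.13, SD, n = 4), and its IDR scores were 733, 1000, 435 and 924. Its percentile therefore hardly moved between replicates, while only replicates 2 and 4 passed the threshold, at a deposited score of at least 830. The upstream sites at -2875 and -2016 had mean ranked percentiles of 83.3 ± 14.2 and 82.1 ± 3.06 (SD, n = 4). Those means were above the sites at +718 in the intron (50.7 ± 12.4) and at +2311 in coding sequence (65.0 ± 18.6). In replicate 4 the site at +2311 stood higher, at 89.5, against 62.4 at -2875 and 79.4 at -2016.

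**Figure D1:**
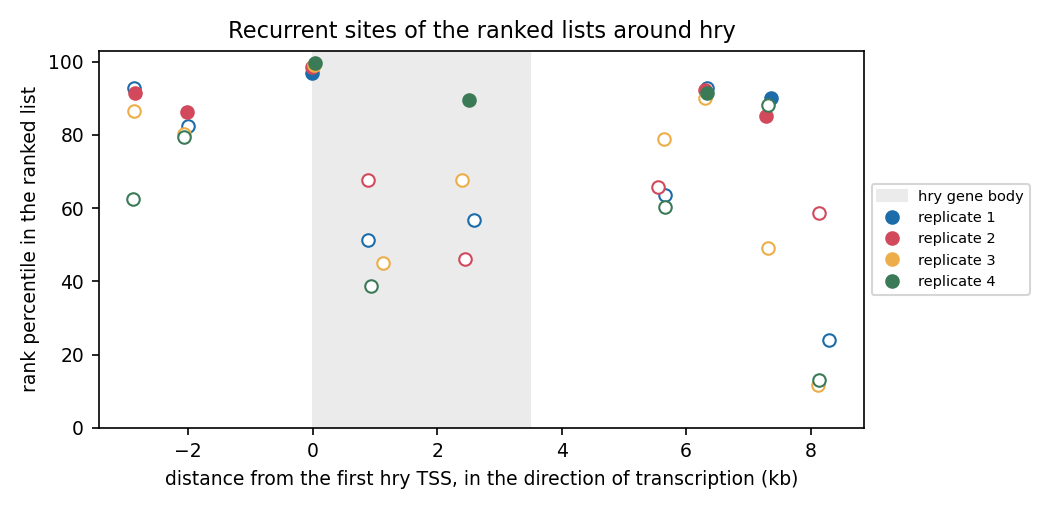
Rank percentile in the ranked list (vertical axis, 100 is strongest) of each recurrent site around hry against distance from the first TSS in kb, with 1 point per replicate; filled points were also in the thresholded list and the shaded band is the gene body. The promoter peaks are filled in all 4 replicates, at 96.8 to 99.6, and the site at about +6 kb lies between 90.2 and 92.7 with 2 of its 4 points filled.

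Beyond the 5 kb limit, 4 more shared regions lay downstream of hry, in intergenic sequence and with hry as the gene with the nearest TSS. They were centred 13373, 14742, 17468 and 18779 bp past the end of the gene. The one at 17468 bp was shared by 4 replicates, with rank percentiles of 49.8, 65.0, 66.3 and 51.9 (58.3 ± 8.59, SD), and the other 3 were each shared by 3, with means of 56.5 ± 20.8, 45.7 ± 16.2 and 65.5 ± 14 (SD, n = 3). Nearness does not show which gene such a region serves.

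odd encodes a zinc finger repressor that refines the stripes of the other pair-rule genes. The gene (FBgn0002985) lies at chr2L:3604224-3606756 on the minus strand with 1 TSS. Its shared region, at chr2L:3606513-3606937, spanned the TSS with its centre in the 5′ UTR. It had summits at +89, +31, -15 and +30 bp from the TSS. The signal ranked 952, 682, 999 and 645, with rank percentiles of 72.3, 84.6, 55.1 and 78.8 (mean 72.7 ± 12.8, SD, n = 4). Replicate 3 was the lowest. This was the single thresholded peak of the odd window in each of the 4 replicates. The ranked lists added a recurrent site at +2958, past the 3′ end, whose ranked percentiles of 88.9, 53.9, 25.8 and 36.4 spread widely, with replicate 1 the highest.

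The remaining primary pair-rule genes had no thresholded peak in any replicate. eve, which encodes a homeodomain repressor that helps to place the stripes of en, had 0 recurrent sites within 5 kb of its gene body (FBgn0000606, chr2R:9979319-9980795, plus strand). Its strongest ranked peak stood at 0.655, 49.3, 30.8 and 49.7, the lowest mean of the 10 genes at 32.6 ± 23.1 (SD, n = 4). For eve these peaks lay at different places, at +5137, -161, +6300 and -438 in replicates 1 to 4. The nearest shared region lay 8298 bp past its 3′ end and at -66 from the TSS of TER94. The centre of that region lay in the non-coding gene lncRNA:CR45324.

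run encodes the founding Runt-domain protein (FBgn0003300, chrX:20690670-20697321, plus strand). Its strongest ranked peak stood at 55.5, 17.2, 52.0 and 42.2 (41.7 ± 17.3, SD, n = 4). Replicate 2 was the lowest, with a peak at another place, at -3323. In replicates 1, 3 and 4 the strongest peak lay at -124, -92 and -438. The 1 recurrent site of run, in replicates 1, 3 and 4, lay at -124 from the second TSS and inside the 5′ UTR of the longer transcript. It stood at 55.5, 52.0 and 12.4 (40 ± 23.9, SD, n = 3).

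ftz, whose homeodomain protein works with the nuclear receptor Ftz-f1 (FBgn0001077, chr3R:6864324-6866244, plus strand), had no ranked peak in replicate 1. In replicates 2 to 4 its strongest one stood at 42.4, 84.1 and 88.5 (71.7 ± 25.5, SD, n = 3), all at the same place 6704 bp downstream of the TSS. The nearest shared region was 15604 bp beyond its 5′ end, in an intron of the Hox gene Scr, at -215 from a Scr TSS. ftz-f1 itself had 11 shared regions within 5 kb, the strongest, at +5587 from its nearest TSS, with a rank percentile of 99.3 ± 0.278 (SD, n = 4).

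Among the genes that act next, prd encodes a paired-domain and homeodomain activator of en and wg, and the sloppy paired genes encode forkhead proteins that repress en. None of the 3 had a thresholded peak in any replicate. For prd (FBgn0003145, chr2L:12082995-12085827, minus strand) the strongest ranked peak stood at 55.5, 59.2, 64.9 and 49.1 (57.2 ± 6.63, SD, n = 4). These peaks lay at different places, at +2242, +7120, -268 and -1906 in replicates 1 to 4. prd had 2 recurrent sites. The one at -268 was in 4 replicates, at 51.3, 52.4, 64.9 and 2.23, and lay in the antisense gene asRNA:CR44592, so it cannot be assigned to prd alone. The other, at +920 in the coding sequence of prd, was in replicates 1, 3 and 4 at 37.5, 42.2 and 47.5 (42.4 ± 4.97, SD, n = 3).

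slp2 (FBgn0004567, chr2L:3836840-3839185, plus strand) had 1 recurrent site, at -1232, the place printed above. Its summit in replicate 1, at -1372, fell outside the printed bases. The ranked percentiles of the site were 83.1, 79.0, 84.3 and 82.4 (82.2 ± 2.27, SD, n = 4), so they were similar in each replicate. Its IDR scores of 723, 650, 322 and 487 all fell short of the threshold. In replicate 1 another ranked peak, at -185, stood slightly higher, at 83.6. In the conservative list of the whole series, which the authors deposited without naming the libraries compared, a peak stood at -1296 with a rank of 3934 of 5841.

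slp1 (FBgn0003430, chr2L:3825675-3827099, plus strand), the neighbour and close relative of slp2, had 0 recurrent sites. No ranked peak was in its window in replicate 1, and the strongest in the others stood at 76.8, 61.8 and 57.6 (65.4 ± 10.1, SD, n = 3). Those of replicates 2 and 4 lay at -165 and -157, and that of replicate 3 lay elsewhere, at -894. In the longest deposited list of the whole series, of 13848 peaks, 1 peak stood at -168, with a rank of 7821.

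**Figure D2:**
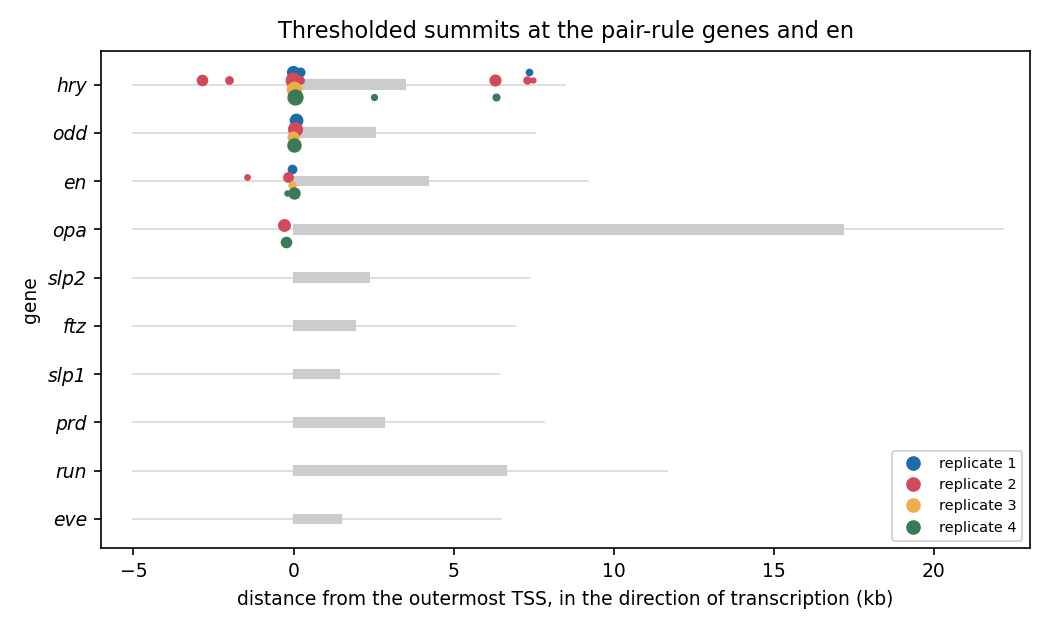
Position of each thresholded summit (points, 1 colour per replicate) relative to the outermost TSS, in kb along the direction of transcription, for the 10 genes; grey boxes are gene bodies, thin lines the windows of 5 kb to each side, and larger points have a higher rank percentile. Summits of all 4 replicates gather at the TSS of hry, odd and en, summits of replicates 2 and 4 lie just upstream of opa, and the other 6 genes have 0.

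opa encodes a Zic-family zinc finger protein expressed broadly rather than in stripes, which times the switch from early to late pair-rule regulation. The gene (FBgn0003002) is the longest of the 10, at 17167 bp (chr3R:4852813-4869979, plus strand). Thresholded peaks were present in replicate 2, with the summit at -290 and a rank percentile of 64.1, and in replicate 4, at -232 and 51.6. Replicates 1 and 3 had none. When 2 replicates were enough for a region at a TSS, opa joined the other 3 genes, and 18.8% of all genes had such a region.

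The ranked lists held the opa promoter site in all 4 replicates, with percentiles of 93.4, 93.7, 89.4 and 95.3 (92.9 ± 2.48, SD, n = 4), close to those of en. What separated the replicates was the IDR score, which was 61, 1000, 684 and 1000. A score of 61 is the lowest in the ranked list of replicate 1. There the site stood at a percentile of 7.96 by the first and 66.0 by the second of the 2 signal values that the IDR step compared, against 86.9 and 85.8 in replicate 3. Of the 2637 peaks at least as strong in replicate 1, 7.28% scored below the threshold, and of the 3168 in replicate 3, 30.2% did. The 201 bases around the region held 3 matches to GCCAT, a number reached by 1.49% of the 2150 shared regions, and 2 to CACCC, reached by 5.49%.

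en encodes a homeodomain repressor that defines the posterior compartment, and it is the one segment polarity gene of the 10. The gene (FBgn0000577) lies at chr2R:11524006-11528210 on the minus strand. Its shared region, at chr2R:11528066-11528463, spanned the outer TSS with its centre in intergenic sequence just upstream, and had summits at -47, -160, -63 and +10 bp from the outer TSS. The signal ranked 2283, 2485, 1830 and 1248, with rank percentiles of 33.6, 43.7, 17.7 and 59.0 (mean 38.5 ± 17.4, SD, n = 4). Replicate 3 was the lowest and replicate 4 the highest. Of the 1768 genes with a shared region at a TSS, 13.0% had a mean no higher. The 201 bases around the centre held 9 matches to GAGAG, a number reached by 1.44% of shared regions, and the hry region held 1.

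A site at -1466 from the outer TSS of en, called in all 4 ranked lists, stood at 79.9, 77.1, 68.2 and 91.8 (79.3 ± 9.73, SD, n = 4). Replicate 2 alone had it in the thresholded list, near the bottom at a rank percentile of 5.28. Within the promoter region, replicate 4 had a further thresholded summit at -193, at 1.65. A shared region lay 16382 bp past the 3′ end of en, in the 3′ UTR of its neighbour and paralogue invected (inv), with a rank percentile of 45.6 ± 11.8 (SD, n = 4). No promoter region of inv was shared.

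The centres of the 3 promoter regions were 27, 30 and 63 bp from a TSS. The median distance over the 1497 shared regions within 1 kb of a TSS was 62 bp, and 50.7% were as near as 63 bp. The order of the 3 genes by thresholded rank percentile was hry, odd, en. hry exceeded odd by 13.6 ± 17.1 points (SD, n = 4), in 3 of 4 replicates, with differences from -5.76 to 34.9 (exact sign-flip permutation test, two-sided, p = 0.25, adjusted over the 2 pairs 0.25). odd exceeded en by 34.2 ± 9.68 points in 4 of 4 replicates, with differences from 19.8 to 40.8 (exact sign-flip permutation test, two-sided, adjusted p = 0.25). The unadjusted p of that pair is the smallest that 4 replicates can give and lies above 0.05, so neither pair could pass that threshold. The difference between odd and en was 14.4 ± 29.6 points when peaks were ranked by the list's other score column, and 10 ± 20 by the IDR score.

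In the ranked lists all 10 genes could be put on 1 scale, by the strongest peak in the window. For slp2, slp1, prd, run and eve that peak was not at the same place in every replicate. The order of means was hry at 98.6 ± 1.21, odd at 97.2 ± 0.651, en at 93.1 ± 2.43, opa at 92.9 ± 2.48 and slp2 at 82.3 ± 2.35 (SD, n = 4), then ftz, slp1, prd, run and eve as given above. The values of neighbours in that order overlapped, except between odd and en and between opa and slp2. The median over all genes with a ranked peak was 83.0, and over isolated genes 50.3, with an interquartile range of 34.2 to 74.6. The median of the 10 genes was 77.0. Longer windows and windows with several genes have more chances to hold a strong peak.

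**Figure D3:**
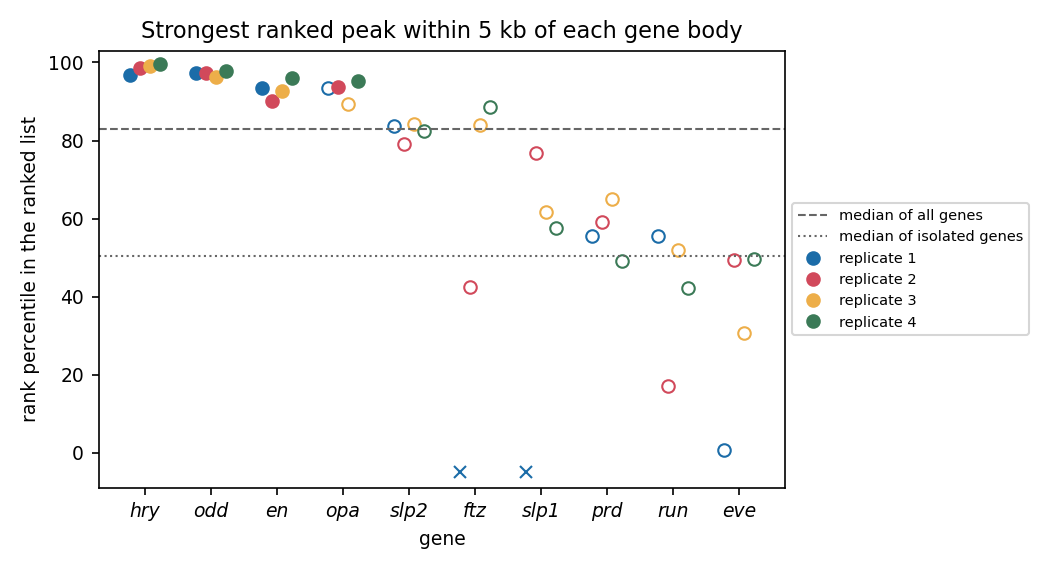
Rank percentile in the ranked list (vertical axis) of the strongest peak within 5 kb of each gene, with 1 point per replicate; filled points mark a replicate with a thresholded peak in that window, crosses a replicate with no ranked peak there, and the lines the medians of all genes (83.0, dashed) and isolated genes (50.3, dotted). The points of hry, odd, en and opa lie at 89.4 or above, and those of prd, run and eve at 64.9 or below.

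Per replicate, 3, 4, 3 and 4 of the 10 genes had a thresholded peak within 5 kb (3.5 ± 0.577, SD, n = 4), against 36.2%, 43.4%, 29.2% and 37% of all genes. The 10 windows held 5, 11, 3 and 7 thresholded peaks, of which 3, 7, 1 and 3 were at hry. Per 10 kb of window this was 0.347, 0.764, 0.208 and 0.486 thresholded peaks, against 0.257, 0.33, 0.166 and 0.227 over the 6 arms. Recurrent sites of the ranked lists were within 5 kb of 8 of the 10 genes, against 80.3% of all genes, and within 1 kb of a TSS for 6 of the 10, against 51.8%. These shares of genes lie near those of all genes. Among isolated genes, 44.8% had at least 1 recurrent site within 5 kb.

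The other genes of the cascade were taken from 5 lists of 45 genes. Within 5 kb, 18 of the 45 had a shared region (40.0%), and 16 had one at a TSS (35.6%), against the 28.5% and 12.7% of all genes given above. A region counted at a TSS can lie nearer to the TSS of another gene, as for nanos below. Genes with several TSSs also have more chances to be counted. Gap and head gap genes, which act above the pair-rule genes, had shared regions at 2 of 11. These were knrl, a nuclear receptor gene next to knirps (91.2 ± 4.78, SD, n = 4), and the head gene cnc (85.7 ± 9.87), while btd and ems were among those without.

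Maternal and other upstream regulators and corepressors had shared regions within 5 kb at 4 of 9, against 28.5% of all genes. Besides ftz-f1 these included Stat92E, the transcription factor of the JAK/STAT pathway, with a region at its TSS (89.9 ± 5.19, SD, n = 4). The strongest region near nanos (69.0 ± 30.1) lay closer to the TSS of CG11779. The morphogen gene bcd and the homeobox gene cad had none.

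Segment polarity genes other than en had shared regions within 5 kb at 7 of 14, against 28.5% of all genes. Of the 14, 5 had one at a TSS, against 12.7% of all genes. The promoter region of wg, the Wnt ligand expressed next to the en stripes, stood at 76.6 ± 2.58 (SD, n = 4). H15, a T-box gene, stood at 57 ± 24.1. The strongest region near ptc, the Hedgehog receptor gene (70.5 ± 31.2), was closest to the TSS of Acsl, and arm and fu had none.

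Of 7 relatives of the pair-rule genes, 2 had a shared region within 5 kb, against 28.5% of all genes. These were sob (58.3 ± 41.2, SD, n = 4) and bowl (68.1 ± 30.5, n = 3), both of the odd family. The strongest region near bowl lay at the TSS of bark, and dpn and drm had none. Pair-rule proteins use the 4 cell surface genes of the last list to set cell rearrangement in axis extension. Of these, 3 had a shared region at a TSS, against 12.7% of all genes. They were 18w (98.2 ± 0.438, n = 4), Tollo (72.5 ± 9.57, n = 4) and Ten-m (39.7 ± 28.4, n = 3), and Toll-6 had none.

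**Figure D4:**
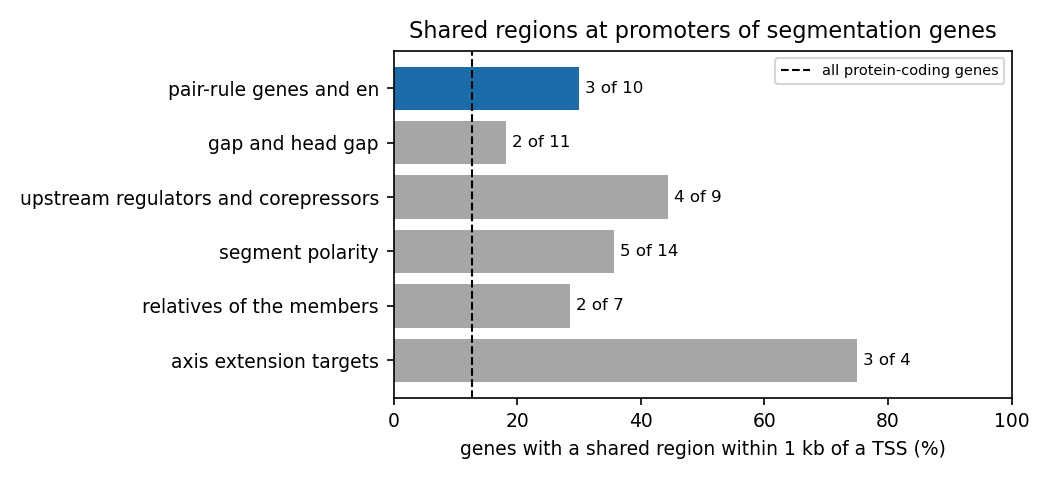
Share of genes in percent (horizontal axis, starting at 0) with a shared region within 1 kb of a TSS, for the pair-rule genes and en (blue) and 5 lists of other segmentation genes (grey), with the counts beside each bar. The dashed line is the 12.7% of all protein-coding genes; the pair-rule genes and en stand at 3 of 10.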

How the data were processed

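ChIP-seq peaks of 4 replicates of 1 group were used, with the replicate numbers of the labels. Per the labels, positions are on dm6. For each library the authors deposited a thresholded and a ranked IDR peak list; neither aligner nor peak caller is named (not given in the sources used here). The deposited signal of each peak has no stated unit, and the deposited score was 830 or higher in each thresholded list. The ranked lists also hold the 2 signal values compared, read by the usual IDR column order. Peaks on 6 arms were kept. Summits extended by 100 bp on both sides were merged when they overlapped. Gene models were Ensembl release 115 (BDGP6.54), and the sequence was RefSeq Release 6. Python 3.11.15, pandas 2.3.3, numpy 2.4.6 and pyfaidx 0.9.0.4 were used. The joining step was tested on simulated lists with at most 1 summit per bound gene and replicate. Regions with several summits in 1 replicate, as at hry and en, were not tried. Genes named in each list are up to 3 with the highest mean percentile and up to 2 without a region, first alphabetically. The 10 genes, the lists, the words and most alternatives were chosen with earlier results of these data known. Of the 45 list genes, nanos and Ten-m were matched through an older symbol. Intervals from read counts could not be given.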

Additional observations from a re-analysis of the deposited data

Results flagged for a closer look

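At the hry site at +7147 bp, downstream of the gene, the ranked percentiles were 90.0, 85.3, 49.2 and 88.3 in replicates 1 to 4. Replicate 3, at 49.2, stood apart from the other values, with a gap of 0.885 of the whole range, above Dixon's critical value for groups of 4. It was 1 of 23 groups of 4 values tested in this way, and chance marks about 1 in 20 groups.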

How the results depend on the processing

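The 3 genes with a shared region (hry, odd and en) became 5 of 10 with a 20 kb window (56.1% of all genes), 8 with the ranked lists (80.3%), 5 with the authors' conservative list (46.9%) and 8 with their longest list (73.4%). Leaving out each replicate, with 2 of the other 3 required, gave 3 to 4 (31.8% to 37% of all genes), with opa added without replicate 1 or without replicate 3. A 10 kb window added eve (4 of 10, against 40.1%). Requiring 4 of 4 libraries or other joining distances left hry, odd and en. Using gene bodies alone left hry and odd (7.15% of all genes), as did the upper 50% of each list (16.7%). The 3 genes with a region at a TSS were within 1.5 times of that count in all 7 alternatives run. The mean number of genes with a thresholded peak, 3.5, was 2 with gene bodies alone, 5.75 with 20 kb and 9.5 with ranked peaks. It was 3.33 to 3.67 without each replicate. For gene bodies alone, 20 kb and ranked peaks the per-replicate share of all genes was not computed. Those means therefore show nothing particular to the 10 genes. Of all 13945 genes, 13588 had a ranked peak within 5 kb. Of the other segmentation genes, 18 of 45 became 7 with gene bodies alone (7.15% of all genes) and 29 with 20 kb (56.1%), and 20 to 23 when a replicate was left out (31.8% to 37%). Ranked by score, hry and odd tied (difference 0, against 13.6 by signal; exact permutation p = 1); leaving out each replicate gave 6.43 to 20 for hry minus odd and 32 to 39 for odd minus en. By column 9 hry minus odd was 25.8 ± 10.6. odd minus en, 34.2 by signal, was 14.4 ± 29.6 by column 9 (exact permutation p = 0.5) and 10 ± 20 by score (exact permutation p = 1). In the ranked lists the differences were 1.35 ± 1.4 and 4.14 ± 2.18. By score, which reaches its maximum for most of these peaks, the hry percentile was 64.1, and by column 9 the odd percentile was 59.1. In the ranked list odd stood at 97.2 and en at 93.1. The causes were not tested. No paired analysis was possible because there was no second group to pair with the first; differences between genes were taken within each replicate. Ranks limit what can be said: they carry no counting error, and binding was not measured where no peak was listed.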

Other observations

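A shared region in 4 replicates, with a rank percentile of 42.8 ± 18.5 (SD), lay 10841 bp past the 3′ end of odd, between odd and sob. It was nearer to the TSS of sob. The individual values were 54, 62, 33.8 and 21.6.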
